A study of Mus musculus with 9 samples.

Results

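The natural killer receptor gene complex of mouse chromosome 6 was examined for binding of CTCF in CD8+ T cells. CTCF peaks of 8 libraries that overlapped the interval chr6:128300000-130500000 (mm9) were merged wherever they shared at least 1 bp. This gave 75 regions out of 39574 in the whole series on chromosomes 1 to 19 and X. The interval was set by position, with earlier results of these data known. Every peak overlapping it was kept, whatever its value.

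The natural killer receptor gene complex holds families of C-type lectin-like receptor genes that stand side by side. In the order of the GRCm38.p6 RefSeq annotation, the Klrb1 genes alternate with the Clec2 genes, which in several cases encode their ligands. Cd69, an early activation marker of lymphocytes, comes next, followed by the myeloid and endothelial lectin genes from Clec12a to Olr1. Klrd1 (CD94), Klrk1 (NKG2D) and Klrc1 to Klrc3 (the NKG2 chains that pair with CD94) follow, and after them come 11 of the 13 matched Klra genes (Ly49 receptors for MHC class I). Klra16 and Klra23 are listed before Klrb1a. The list gives order alone, so their place in the complex was not determined. Activated CD8+ T cells can express several of these receptors, NKG2D among them. In natural killer cells, Tcf1 is known to be needed for the normal expression of Ly49A, the product of Klra1. CTCF is a zinc finger protein that marks insulators and anchors loops of chromatin. Of 54 gene symbols listed for the complex, 44 were found in that annotation, which was used for names and order alone. Gene positions in mm9 and the DNA sequence under the peaks were not used here, so regions are given by their coordinates and no gene is assigned to one.

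CTCF was profiled by CUT&RUN, in which an antibody-tethered nuclease cuts out the DNA around a bound protein. DKO cells (Tcf1-/-Lef1-/-) lacked Tcf1 and Lef1, related HMG-box proteins that bind DNA and guide T cell development, through hCD2-Cre acting on floxed alleles. WT cells had wild-type Tcf1 and Lef1 alleles and carried hCD2-Cre and the Rosa26-lsl-GFP reporter as well. Human CD2 sequences drive this Cre in lymphocytes, and the cells of every group were sorted from spleen as GFP+ TCRbeta+ CD62Lhi CD44lo-med CD8+. The groups were DKO cells kept for 72 h in IL-7 plus IL-15, WT cells kept in the same way, DKO cells at 0 h and WT cells at 0 h, with 2 libraries each. One further library, made with IgG from WT cells of 0 h, gave the antibody background. The labels used here give no age or sex, and do not say that replicates came from separate animals, so any test over these libraries measures a spread that may be technical. CTCF peaks hold no readout of the deleted genes or of cell type markers, so neither the genotype nor the sort could be checked from these files.

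List length differed between groups and bears on every count that follows. The lists held 10339 and 16234 peaks in DKO cells at 72 h, 17335 and 26630 in WT cells at 72 h, 30309 and 31394 in DKO cells at 0 h, and 32587 and 30968 in WT cells at 0 h. All lists contained peaks of fold 4 or more, where fold is the enrichment over local background given by the authors' peak caller. It is the peak's own value and was not scaled between libraries. The IgG list had 5 peaks, of which 0 lay in the interval.

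Across the complex, CTCF peaks were dense in the first 1.47 Mb and missing from the rest. Within the interval there were 34.1 regions per Mb, against 14.7 per Mb over chromosome 6 and 15.4 per Mb over all chromosomes used. From the first to the last region of the complex the density was 51.0 per Mb. The last region was chr6:129775242-129776076. No library had a peak from there to the end of the interval, a distance of 724 kb. The empty stretch went on beyond the interval and reached chr6:129776077-131240169, 1464 kb in all. The first region after it, chr6:131240170-131241070, had a fold of 6.17 in WT replicate 2 at 72 h, and of 5.32 and 5.99 in DKO cells and 5.55 in WT replicate 1 at 0 h. Of 39554 gaps between neighbouring regions in the series, 232 (0.587%) were at least as long, and the median gap was 15.2 kb. On chromosome 6, 10 of 2152 gaps were at least as long. In the reference order 11 of the 13 matched Klra genes stand at the end of the complex where this stretch lies. The other 2 are listed before Klrb1a. Which Klra genes lie inside the stretch was not determined, and the share of it to which reads can be aligned was not tested.

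**Figure D1:**
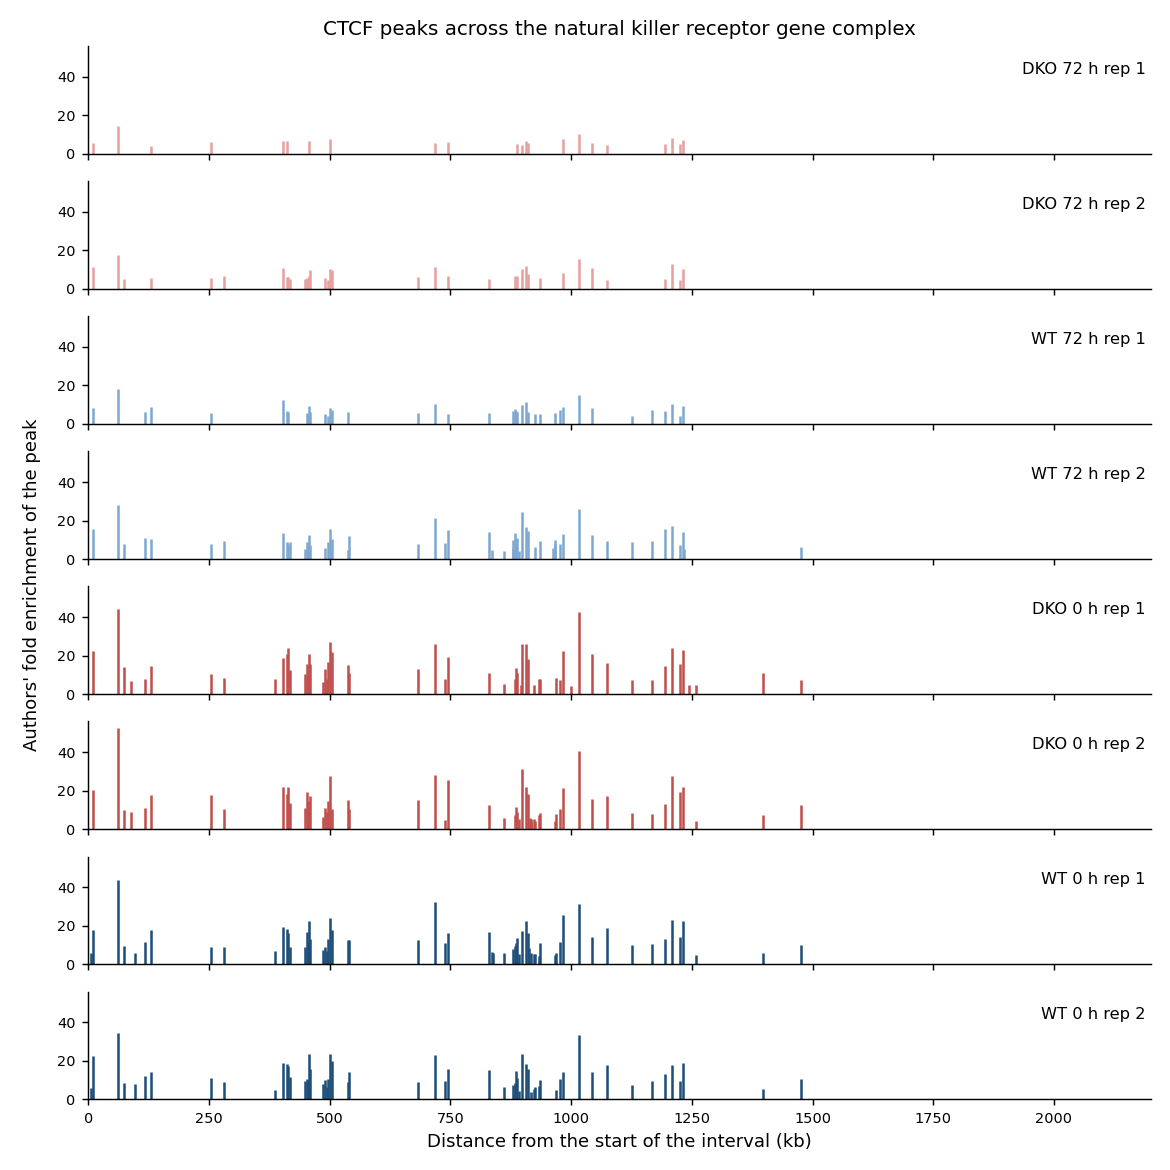
CTCF peaks along the interval in each library. The x axis is the distance from the start of the interval in kb, the y axis is the authors' fold enrichment, and each line is a region with a peak in that library (the highest peak where a region held several). All 8 libraries were empty beyond the last region, and the tallest line was the region chr6:128360949-128361954 in every library.

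The density was uneven within the occupied part. In steps of 200 kb from the start of the interval, the first to eighth steps held 8, 3, 17, 4, 28, 7, 7 and 1 regions, and the ninth to eleventh held 0. The fifth step, chr6:129100000-129300000, was the densest. With chromosomes divided into steps of the same length, 7 of 12833 steps (0.0545%) held 28 regions or more, the median step held 1 and 42.6% held 0. Gaps between neighbouring regions of the complex had a median of 6.07 kb and ran from 131 bp to 144 kb. The 4 gaps over 100 kb were chr6:128430838-128554250, chr6:128580516-128686095, chr6:128839336-128983176 and chr6:129559154-129697111.

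**Figure D2:**
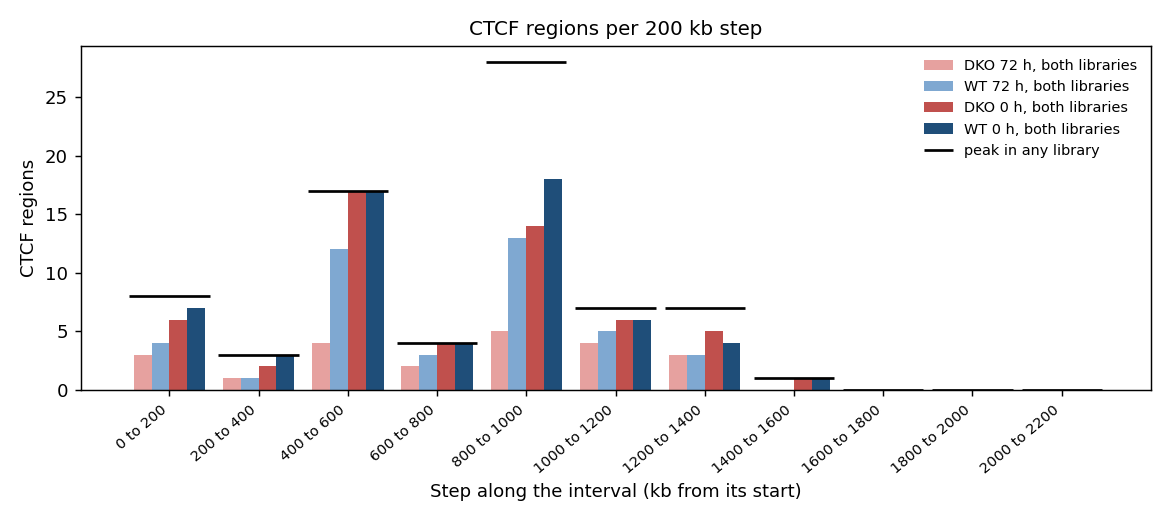
CTCF regions in 200 kb steps from the start of the interval. Bars give the number of regions with a peak in both libraries of a group, and black lines the number of regions with a peak in any library. The fifth step had the most regions, and its counts were 5 in DKO cells at 72 h, 13 in WT cells at 72 h, 14 in DKO cells at 0 h and 18 in WT cells at 0 h.

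Many regions of the complex lay near each other. When neighbours within 10 kb were joined, 7 arrays of 3 or more regions held 45 of the 75 regions, 4 pairs held 8 more, and 22 regions stood alone. The share of all regions of the series in such arrays was not determined, so these counts are a description. Regions of a single library were joined as well. The longest array, chr6:129179088-129235171, had 18 regions over 56.1 kb. There, peaks were listed at 4 and 6 of them in DKO cells at 72 h, 9 and 11 in WT cells at 72 h, 10 and 14 in DKO cells at 0 h, and 14 and 13 in WT cells at 0 h. It was a mixed array, with 4 regions found in all 8 libraries and 5 found in a single library.

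Closely spaced arrays nearer the start of the interval were more uniform at 0 h. The arrays chr6:128703622-128717402, chr6:128748510-128759169 and chr6:128785908-128804642 had 4, 5 and 6 regions, and every one of them had a peak in all 4 libraries at 0 h. At 72 h, the first held 2 and 4 regions in DKO cells and 3 and 4 in WT cells. The second held 1 and 4 in DKO cells and 4 and 5 in WT cells, and the third held 1 and 4 in DKO cells and 4 and 4 in WT cells. Together with a pair on their right they made up the third 200 kb step, where all 17 regions were listed in every library at 0 h, and at 72 h 4 and 12 in DKO cells and 12 and 15 in WT cells. Where a peak is missing in such pools of cells, fewer cells with bound CTCF and less binding per cell cannot be told apart. Nor can either be told from a bound site that was not called in a shorter list.

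Peaks were listed at 22 and 36 of the 75 regions in DKO cells at 72 h, 41 and 56 in WT cells at 72 h, 59 and 61 in DKO cells at 0 h, and 65 and 60 in WT cells at 0 h. The means were 29 ± 9.90 in DKO cells and 48.5 ± 10.6 in WT cells at 72 h, and 60 ± 1.41 in DKO cells and 62.5 ± 3.54 in WT cells at 0 h (SD, n = 2 each). At 72 h the libraries of a genotype stood far apart, while at 0 h all 4 were close. Per 1000 peaks of the list, the complex held 2.22 and 2.28 peaks in DKO cells and 2.54 and 2.18 in WT cells at 72 h, and 1.98 and 1.94 in DKO cells and 1.99 and 2.002 in WT cells at 0 h. In each genotype the share was higher at 72 h, in the shorter lists.

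Of the 75 regions, 21 (28.0%) had a peak in all 8 libraries, against 24.2% of all regions in the series. A further 11 (14.7%) had a peak in 7 libraries and 11 (14.7%) in 6, against 11.5% and 8.32% of all regions. There were 5 regions (6.67%) in 5 libraries, 9 (12%) in 4, 3 (4%) in 3 and 4 (5.33%) in 2, against 11.5%, 11.3%, 8.14% and 10.3% of all regions. A single library had the peak at 11 regions (14.7%), against 14.7% of all regions. The missing library was DKO replicate 1 at 72 h in 10 of the 11 regions with 7 libraries, and WT replicate 1 at 72 h in the other one. The 11 regions of 6 libraries lacked both DKO libraries at 72 h (7 regions) or replicate 1 of both genotypes at 72 h (4 regions). All missing peaks of these 22 regions were thus at 72 h, where the lists were shortest. The folds at 0 h followed the same order. In the 21 regions of all 8 libraries the median fold at 0 h was 20.9 and 21.6 in DKO cells and 18.2 and 18.2 in WT cells. In the 11 regions of 7 libraries it was 15.7 and 14.9 in DKO cells and 13.2 and 10.8 in WT cells. In the 11 regions of 6 libraries it was 10.3 and 10.8 in DKO cells and 10.4 and 9.78 in WT cells. The median width of the merged regions was 1036 bp for those in 8 libraries, 1156 bp for 7, 780 bp for 6, 835 bp for 5, 783 bp for 4, 687 bp for 3, 416.5 bp for 2 and 349 bp for a single one. A merged region spans all of its peaks, so regions of more libraries tend to be wider through the merging itself.

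At 0 h the complex was much alike in both genotypes. A peak in all 4 libraries at 0 h was found at 53 regions (70.7%), against 61.8% of all regions. Over these 53 regions, Spearman's rho of the fold values was 0.878 between the DKO replicates, 0.883 between the WT replicates and 0.803 to 0.868 between a DKO and a WT library. These correlations are across sites that share their libraries and are given as a description. Both DKO libraries shared 55 regions, which was 93.2% and 90.2% of those in replicates 1 and 2. The WT libraries shared 60, which was 92.3% and 100% of those in replicates 1 and 2.

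The strongest regions were found in all 8 lists. Ranked by mean percentile of the authors' p-value within each list, the first was chr6:128360949-128361954. Its fold was 14.5 and 17.6 in DKO cells and 18.4 and 27.9 in WT cells at 72 h, and 44.1 and 52.8 in DKO cells and 43.9 and 34.3 in WT cells at 0 h. It stood at percentile 93.3 or higher in each of the lists. The second, chr6:129315491-129316832, had a fold of 10.3 and 15.6 in DKO cells and 15.3 and 25.8 in WT cells at 72 h, and of 42.7 and 40.4 in DKO cells and 31.3 and 33.6 in WT cells at 0 h. At both regions each 72 h value was below each 0 h value, and each DKO value was above each WT value at 0 h. At 72 h the order was the other way at the first region, and the genotypes overlapped at the second. Folds were not scaled between libraries, so these orders are a description. The whole lists had lower folds at 72 h as well, with medians of 7.03 and 8.05 in DKO cells and 7.89 and 9.06 in WT cells, against 10.4 and 10.3 in DKO cells and 10.1 and 9.78 in WT cells at 0 h.

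The next ones lay in the longest array. At chr6:129197894-129199235 the fold was 4.71 and 10.5 in DKO cells and 9.91 and 24.4 in WT cells at 72 h, and 25.9 and 31.5 in DKO cells and 17.4 and 23.4 in WT cells at 0 h. Here WT replicate 2 at 72 h was above both WT libraries at 0 h. At chr6:129204755-129206863 it was 6.82 and 12.1 in DKO cells and 11.3 and 16.6 in WT cells at 72 h, and 26.2 and 22.1 in DKO cells and 22.7 and 18.3 in WT cells at 0 h. The fifth, chr6:129508979-129509976, had 8.01 and 12.8 in DKO cells and 10.6 and 17.0 in WT cells at 72 h, and 23.96 and 27.7 in DKO cells and 22.8 and 17.8 in WT cells at 0 h. At these last 2 regions all 72 h values again lay below all 0 h values. The lowest percentile of each of these 3 regions was in DKO replicate 1 at 72 h, with 31.4, 62.2 and 57.3 in the order given.

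Over the 21 regions found in all 8 libraries, the median fold at 72 h was 6.26 and 10.2 in DKO cells and 8.89 and 14.4 in WT cells, below the medians of 0 h given above. Spearman's rho of their folds was 0.396 to 0.782 between libraries at 72 h, 0.681 to 0.846 between libraries at 0 h and 0.512 to 0.814 between a library of 72 h and one of 0 h. Summits of a region lay within 36 to 1165 bp of each other over the 8 libraries, with a median of 144 bp, and within 100 bp at 7 of the 21. Among all peaks of a list, those of the complex were of middling to high rank, with median percentiles of 42.2 and 56.1 in DKO cells and 51.9 and 57.4 in WT cells at 72 h, and 69.5 and 63.3 in DKO cells and 59.3 and 65.3 in WT cells at 0 h. Ranks were taken within a list, and lists of different length show no change through them.

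DKO and WT cells at 0 h were compared to ask where CTCF peaks of the complex differ without Tcf1 and Lef1 in naive cells. A region counted as found in one group alone when each library of that group listed a peak and those of the other group listed none. By this rule 1 region was found in DKO cells alone and 3 in WT cells alone. The same rule called 2.73% of all regions for DKO cells and 4.88% for WT cells, against 1.33% and 4% of the regions of the complex, so these counts were not above the background. When all 4 lists of 0 h were shortened to the same length of 30309 peaks, the same 1 and 3 regions were called, of 69 then found in the complex, where the background was 3.38% and 4.62%. That length is close to the full lists of 0 h. With all 8 lists shortened to 10339 peaks, 0 of the 1 and 0 of the 3 were still called. Then 1 other region was called for each genotype. With 2 libraries against 2, an exact two-sided p cannot go below 0.333 and none is given. With a library left out, the DKO count was 3 without DKO replicate 1, 4 without DKO replicate 2 and 2 without WT replicate 1. The WT count was 6 without DKO replicate 2 and 6 without WT replicate 2. For these counts, and those with 10339 peaks in all 8 lists, no share over all regions is given. They are thus not set against the series.

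The region found in DKO cells alone was chr6:128388535-128389015, with a fold of 7.08 and 8.70 in DKO cells and no peak listed in WT cells. A region found in WT cells alone, chr6:128396223-128396550, began 7.21 kb to its right, with no peak in DKO cells and a fold of 6.05 and 8.15 in WT cells. Neither of these neighbours was listed by any library of 72 h. Another of the WT regions was chr6:128305615-128306208, the first region inside the interval, with 5.71 and 5.87 in WT cells at 0 h and no peak in any of the other libraries. It stood between regions found in all 8 libraries. On its left, beginning 16.0 kb before the interval, lay chr6:128284002-128285165, with a fold of 5.46 and 9.25 in DKO cells and 9.64 and 20.2 in WT cells at 72 h, and of 18.7 and 13.5 in DKO cells and 24.98 and 25.1 in WT cells at 0 h. On its right lay chr6:128308821-128309714, whose fold at 0 h was 22.3 and 20.4 in DKO cells and 18.1 and 22.4 in WT cells.

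The third of the WT regions at 0 h was the one region of the complex that had a peak in all 4 WT libraries and in no DKO library. It was chr6:129179088-129179461, 374 bp wide, at the left end of the longest array. The fold in WT cells was 6.71 and 9.76 at 72 h and 7.82 and 7.44 at 0 h, and no DKO library had a peak there at either time. Its rank percentile in the WT lists was 56.6 and 68.4 at 72 h and 48.4 and 43.8 at 0 h, so it was not among the weakest peaks. In the series 0.498% of the regions (197) had this pattern. The reverse, all 4 DKO libraries and no WT library, was found at 0.0126% of all regions (5) and at 0 regions of the complex. Fisher's exact test over 4 DKO against 4 WT libraries gave a two-sided p of 0.0286, the smallest the design allows, and 1 after Benjamini-Hochberg adjustment over 39574 regions. By the same test 0 regions of the complex passed an adjusted p of 0.05 for genotype and 1 an unadjusted p of 0.05, against 0.00% and 0.510% of all regions. As this test cannot go below 0.0286, an adjusted p under 0.05 needs most of the 39574 regions to reach that value. The 0 adjusted calls therefore cannot show that the genotypes were alike.

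Its neighbours in the array differed in presence among themselves. At 788 bp to its right, chr6:129180250-129180521 had a peak in WT replicate 2 at 72 h (fold 5.01) and in no other library. The next, chr6:129182811-129183797, had a fold of 6.44 in DKO replicate 2 and of 7.67 and 13.6 in WT cells at 72 h, and of 7.82 and 7.41 in DKO cells and 9.76 and 8.49 in WT cells at 0 h. Another region of the array, chr6:129225072-129226063, had a peak in all 4 WT libraries and in 1 DKO library. Its fold was 5.09 and 6.45 in WT cells at 72 h, and 4.26 in DKO replicate 2 and 5.30 and 6.72 in WT cells at 0 h.

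**Figure D3:**
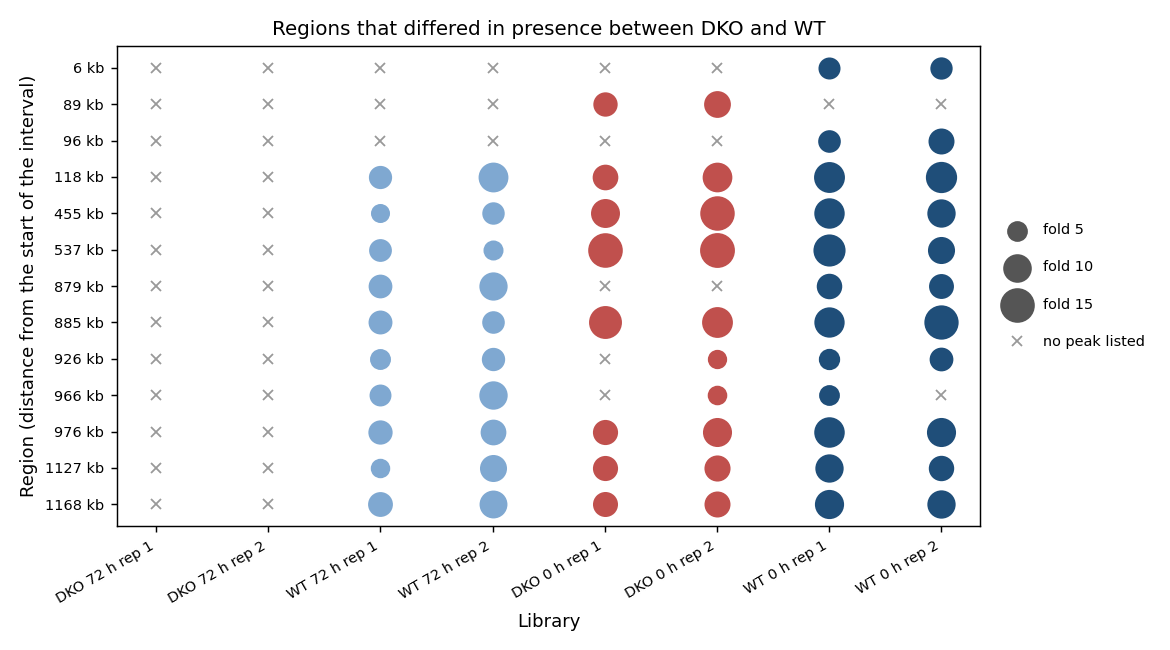
The 13 regions found in one genotype alone at 0 h or at 72 h, ordered along the interval. Columns are libraries, rows are regions named by their distance from the start of the interval in kb, the area of a disc is the authors' fold enrichment, and a cross marks that no peak was listed. The region at 879 kb had a peak in all 4 WT libraries and in no DKO library.

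In the cultured cells of 72 h, the same comparison gave 0 regions in DKO cells alone and 10 in WT cells alone. The background was 0.0303% for DKO cells and 6.37% for WT cells, against 13.3% of the regions of the complex for WT cells. The lists of WT cells were longer, and this moved with the count. When all 4 lists of 72 h were shortened to the 10339 peaks of lowest p, 0 of 34 regions were found in DKO cells alone and 2 (5.88%) in WT cells alone, where the same shortened lists gave 3.19% and 3.41% over the series. They were chr6:129179088-129179461, the one of the 10 that was still called, and chr6:129182811-129183797, which was not among the 10. The WT count was 20 without DKO replicate 2 and 20 without WT replicate 1, and the DKO count was 1 without WT replicate 2. Shares over all regions are not given for these counts, so they are not set against the series.

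Of the 10 regions, 7 were listed by each DKO library of 0 h. At chr6:128417217-128417853 the fold in WT cells at 72 h was 6.39 and 10.95, and at 0 h it was 7.94 and 10.9 in DKO cells and 11.8 and 12.1 in WT cells. Within an array, chr6:128754834-128755998 had 4.13 and 5.94 in WT cells at 72 h, against 10.3 and 14.9 in DKO cells and 11.4 and 9.81 in WT cells at 0 h. Both regions were occupied in every library at 0 h. The region chr6:128837206-128837762 had 6.14 and 4.62 in WT cells at 72 h, and 15 and 15.2 in DKO cells and 12.8 and 8.89 in WT cells at 0 h. In the longest array, chr6:129184475-129185267 had 6.81 and 6.02 in WT cells at 72 h, and 13.5 and 11.7 in DKO cells and 11.3 and 14.7 in WT cells at 0 h. At these 4 regions the WT values at 72 h lay below all DKO values at 0 h, except for the 10.95 of WT replicate 2 at the first of them.

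Further along, chr6:129276043-129276857 had a fold of 7.02 and 7.98 in WT cells at 72 h, and of 7.59 and 10.3 in DKO cells and 11.5 and 10.4 in WT cells at 0 h. The region chr6:129426543-129427322 had 4.35 and 8.86 in WT cells at 72 h, and 7.59 and 8.23 in DKO cells and 9.79 and 7.76 in WT cells at 0 h. At chr6:129468002-129468670 the values were 7.39 and 9.48 in WT cells at 72 h, and 7.51 and 8.17 in DKO cells and 10.4 and 9.78 in WT cells at 0 h. At all 3 the WT values at 72 h overlapped the DKO values at 0 h. Within WT cells both 72 h values were below both 0 h values at the first and the last of them, and overlapped them at the other one.

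The remaining ones of the 10 were chr6:129179088-129179461 and chr6:129225072-129226063, described above, and chr6:129265519-129266075. This last region had 5.64 and 9.85 in WT cells at 72 h, and at 0 h it had 4.40 in DKO replicate 2 and 5.03 in WT replicate 1. Its rank percentile was 10.9 and 48.6 in the WT lists of 72 h and 1.397 in the DKO list and 5.36 in the WT list of 0 h. It lay in an array of 6 regions, chr6:129262632-129284383, that had peaks at 1 and 1 of them in DKO cells and 3 and 5 in WT cells at 72 h, and at 3 and 4 in DKO cells and 4 and 3 in WT cells at 0 h. Its most filled list was one of 72 h, WT replicate 2.

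Cells at 72 h and at 0 h were compared within each genotype. In WT cells 0 regions were found at 72 h alone and 10 at 0 h alone, where the background was 0.576% and 13.0% and the complex had 13.3% at 0 h. In DKO cells 0 regions were found at 72 h alone and 19 at 0 h alone, where the background was 0.116% and 29.1% and the complex had 25.3% at 0 h. The shares at 0 h were thus close to those of the series. With lists of equal length within the contrast (17335 peaks), 52 regions were found in the complex for WT cells. Of these, 3 (5.77%) were found at 72 h alone and 2 (3.85%) at 0 h alone, where the background was 4.88% and 5.55%. Of the 2 at 0 h alone, 1 was among the 10. With 10339 peaks per list, 34 regions were found in the complex for DKO cells. Of these, 0 were found at 72 h alone and 3 (8.82%) at 0 h alone, where the background was 5.51% and 7.17%. None of these 3 was among the 19 (0 of 19 still called). The WT count at 0 h was 20 without WT replicate 2 of 72 h, the WT count at 72 h was 4 without WT replicate 1 of 72 h and 1 without WT replicate 1 of 0 h, and the DKO count at 0 h was 33 without DKO replicate 2 of 72 h. For counts with a library left out, no share over all regions is given.

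A peak in all 4 libraries at 0 h and in none at 72 h was found at 6 regions (8%), against 7.51% of all regions. The reverse, all 4 libraries at 72 h and none at 0 h, was found at 0 regions of the complex and 0.0783% of all regions. The highest fold among them was at chr6:129697112-129698114, with 10.8 and 7.17 in DKO cells and 5.71 and 5.28 in WT cells, where the genotypes did not overlap. At chr6:128792579-128794360 it was 8.04 and 8.71 in DKO cells and 6.76 and 6.56 in WT cells, again without overlap. The order was the other way at chr6:128785908-128786881, with 6.24 and 6.52 in DKO cells and 7.55 and 7.83 in WT cells. The DKO values were also the higher ones at chr6:129268234-129268951 (8.32 and 7.71 in DKO cells, 6.08 and 4.83 in WT cells) and at chr6:129232269-129233051 (7.78 and 7.60 in DKO cells, 4.23 and 6.77 in WT cells). The sixth, chr6:129223369-129224227, had 4.51 and 5.48 in DKO cells and 5.46 and 5.46 in WT cells. Each of the 6 had an unadjusted p of 0.0286 by Fisher's exact test over 4 libraries at 72 h against 4 at 0 h, and an adjusted p of 0.376. By this test 0 regions of the complex passed an adjusted p of 0.05 and 6 an unadjusted p of 0.05, against 0.00% and 7.59% of all regions. Here too an adjusted p under 0.05 needs most regions of the series to reach 0.0286. The 0 adjusted calls therefore cannot show that the times were alike.

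The other regions found in WT cells at 0 h alone were chr6:128686096-128686539, with 7.64 in DKO replicate 1 and 7.14 and 4.83 in WT cells at 0 h, and chr6:129216289-129216975, with 5.38 in DKO replicate 2 and 6.02 and 4.09 in WT cells. The remaining pair, chr6:128305615-128306208 and chr6:128396223-128396550, had no peak in DKO cells either. Of the 19 regions found in DKO cells at 0 h alone, 6 were those with a peak in all 4 libraries at 0 h and none at 72 h. The regions chr6:128388535-128389015 and chr6:129558404-129559153 also had no peak at 72 h, but lacked one in WT cells at 0 h as well, in 1 library or more. A further 7 of the 19 were listed by each WT library of 72 h. By the higher of both DKO folds at 0 h, the first of the 19 were chr6:128837206-128837762, chr6:128754834-128755998 and chr6:129184475-129185267, whose values are given above, with chr6:128417217-128417853 in the fifth place. The fourth was chr6:129775242-129776076, which had a fold of 6.02 in WT replicate 2 at 72 h, and 7.36 and 12.4 in DKO cells and 9.80 and 10.7 in WT cells at 0 h. The fourth, the last region of the complex, was one of 4 regions with a peak in all libraries at 0 h and in WT replicate 2 alone at 72 h. The region chr6:128838840-128839335 had 11.8 in that library, and 10.8 and 10.3 in DKO cells and 12.4 and 14.2 in WT cells at 0 h. By the mean of the DKO folds, this one would stand above the fourth and the fifth. At chr6:129038062-129038523 the fold was 8.38 in that library, and 7.94 and 4.94 in DKO cells and 11.1 and 9.46 in WT cells at 0 h. At chr6:129160366-129161475 it was 4.41 in that library, and 5.19 and 5.97 in DKO cells and 5.84 and 6.48 in WT cells at 0 h.

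Of the regions in both libraries at 0 h, the share with a peak at 72 h was read for each library. In DKO cells, 22 of 55 (40%, exact Clopper-Pearson 95% interval 27.0 to 54.1%) were found in replicate 1 and 36 of 55 (65.5%, 51.4 to 77.8%) in replicate 2. In WT cells, 40 of 60 (66.7%, 53.3 to 78.3%) were found in replicate 1 and 50 of 60 (83.3%, 71.5 to 91.7%) in replicate 2. Over the whole series these shares were 36.9%, 57.0%, 58.0% and 81.3% in the same order of libraries. The intervals cover counting error over regions alone, and not the spread between libraries. They also take regions as independent, although many lay within 10 kb of each other. They are thus a description and cannot decide whether the complex differed from the series.

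Regions found again at 72 h ranked higher at 0 h. Among regions with a mean rank percentile of 75 or more at 0 h, 15 and 21 of 21 were found in DKO cells and 23 and 24 of 24 in WT cells at 72 h. Over the series the shares of this class were 84.4% and 95.3% in DKO cells and 96.1% and 99.3% in WT cells. Among those under 50, 0 and 2 of 16 were found in DKO cells and 9 and 14 of 23 in WT cells. Over the series these shares were 5.30% and 22.6% in DKO cells and 24.7% and 63.1% in WT cells, so the relation to rank was also seen across all regions. The median of the mean fold at 0 h was 20.7 for the 22 DKO regions found in both libraries at 72 h, 12.6 for the 14 found in a single one and 8.02 for the 19 found in neither. In WT cells these medians were 14.2 (40 regions), 9.88 (10 regions) and 5.64 (10 regions). In WT replicate 2 most of the 50 regions found were below percentile 75 at 0 h (14 under 50 and 12 from 50 to 75).

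**Figure D4:**
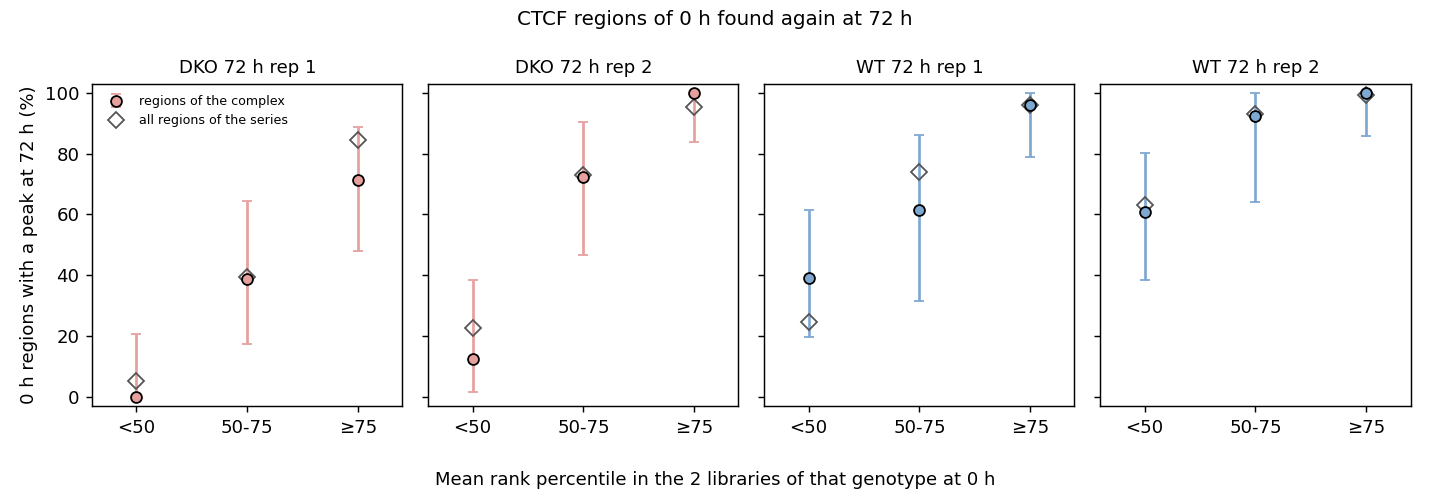
Share of the regions of both 0 h libraries that had a peak in each 72 h library of the same genotype, by their mean rank percentile at 0 h. Filled circles are regions of the complex with exact 95% intervals, and open diamonds are all regions of the series. In the top class the shares of the complex were 71.4% and 100% in DKO cells and 95.8% and 100% in WT cells.

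At 72 h, each of the shorter lists of the complex lay wholly inside that of WT replicate 2. All 22 regions of DKO replicate 1 were among the 36 of DKO replicate 2, and all 36 of these were among the 56 of WT replicate 2. All 41 regions of WT replicate 1 were among the same 56, and 31 of the 36 regions of DKO replicate 2 (86.1%) were among these 41 (75.6%). Of the 22 regions of DKO replicate 1, 21 (95.5%) were among the 41 (51.2%). Over the series, WT replicate 2 held 99.7% of the regions of DKO replicate 1, 98.7% of those of DKO replicate 2 and 98.7% of those of WT replicate 1. No region of the complex was thus called at 72 h without a peak in WT replicate 2. There were 4 regions whose peaks came from 72 h only, each from WT replicate 2 alone, with folds of 5.01 to 7.64. They were chr6:129180250-129180521, chr6:129262632-129262887, chr6:129266583-129266855 and chr6:129532996-129533349. The first lay in the longest array, and the next ones in the array of 6 regions described above. The other 7 regions of a single library were all of 0 h, 3 in DKO replicate 1 (fold 4.07 to 4.92), 2 in DKO replicate 2 (4.23 to 5.62) and 2 in WT replicate 1 (5.71 to 8.68).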

How the data were processed

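CTCF peak lists of 8 libraries and 1 IgG list were used as deposited, 1 list per library. The tools named per the submitters' processing notes are Bowtie2 2.2.5, MACS2 2.1.1 and FastQC, with build mm9. Which control and which thresholds went into the calls is not given in the sources used here. Beside each peak, the authors deposited a fold value (a linear ratio of signal to background), −log10 of its p and of its q, a score and the offset of its summit in bp. Read depth per library was not given, so list lengths are given in its place, and an absent peak shows only that none was called.

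Peaks on chromosomes 1 to 19 and X were merged at an overlap of 1 bp, and regions overlapping the interval were kept. Where a library had several peaks in a region, the highest fold was used. Percentiles rank −log10 p within a list. Presence was tested by Fisher's exact test over libraries with Benjamini-Hochberg adjustment over all regions (Python 3.11.15, SciPy 1.17.1). The steps were tested on simulated lists. The named regions were the 5 of highest mean rank, those called in any contrast (where over 12, the 5 of highest fold in a single library of the calling group), those at both ends, and those in all 4 libraries of a genotype or time and at most 1 of the other. The interval, lists and rules were chosen with earlier results of these data known. Alternatives were −log10 q of at least 5, equal list lengths, 50% overlap, summits within 100 bp, presence in 1 library of a group, leaving out libraries one by one, and a replicate block. Equal length within a contrast was added after seeing the data.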

Additional observations from a re-analysis of the deposited data

How the results depend on the processing

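Several counts of regions found in one group alone moved with list length, the presence rule and the merging of peaks. For such counts, shares over all regions are given for the main rule and for equal length within the contrast alone. Counts under the other settings are thus not set against the series. With 50% overlap of the shorter peak no count moved. With −log10 q of at least 5, the 0 h-only count in WT was 5 and the WT-only count at 72 h was 6. With all 8 lists shortened to 10339 peaks, 39 regions were left, with 1 WT-only at 0 h, 2 WT-only at 72 h, 3 at 72 h alone and 5 at 0 h alone in WT, and 3 at 0 h alone in DKO, and the shares found again in DKO at 72 h were 68.0% and 80.0%. The DKO-only count at 0 h stayed at 1, but the DKO-only and WT-only regions at 0 h were not those of the full lists. With equal length within the contrast, the 72 h-only and 0 h-only counts were 3 and 2 in WT, the 0 h-only count in DKO was 3 and the WT-only count at 72 h was 2, while the DKO-only and WT-only counts at 0 h stayed at 1 and 3. With summits within 100 bp there were 2 DKO-only and 5 WT-only regions at 0 h, and 1 at 72 h alone in WT and in DKO. With a peak in at least 1 library there were 6 DKO-only and 6 WT-only regions at 0 h, 20 WT-only at 72 h, 4 at 72 h alone in WT and 29 at 0 h alone in DKO. With each library left out in turn, DKO-only and WT-only counts were 1 to 4 and 3 to 6 at 0 h, and 0 to 1 and 10 to 20 at 72 h, the 72 h-only and 0 h-only counts in WT were 0 to 4 and 10 to 20, and the 0 h-only count in DKO was 19 to 33. The cause of these moves was not tested. Some settings used fewer peaks or libraries, while the summit rule and the rule of at least 1 library used all of them. The region chr6:129179088-129179461 was WT-only at 72 h under all of the settings on peaks, lists and merging, and at 0 h under all but the one with 10339 peaks in all 8 lists. Exchanging libraries within replicate numbers (replicate block) gave 0 adjusted calls for genotype and for time, as without the block, and its smallest p is 0.125. Differences between replicates 1 and 2 correlated by -0.017 to 0.039 between groups. This cannot show whether libraries of the same replicate number were handled together, and the labels do not say. At 72 h replicate 1 was the shorter list in both genotypes.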
